A study of Bos taurus with 16 samples.

Results

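The 9 gene names of 3 secreted trophoblast families were followed in single bovine blastocysts and bovine embryonic stem cells: the pregnancy-associated glycoproteins PAG1, PAG2, PAG8, PAG11 and PAG12, the interferon tau genes IFNT2 and IFNT3, and the trophoblast Kunitz domain proteins TKDP1 and TKDP4. The members were taken by gene name alone, and all 9 names were present in each of the 3 expression tables, among 38959 genes in the first blastocyst table, 37429 in the second and 28303 in the stem cell table. The first table held 3 DMSO and 3 LY10 blastocysts, the second held 2 LY_DMSO, 2 cell2_LY and 2 cell16_LY blastocysts, and the third held 2 bESC_tifx and 2 bESC_LY cultures. LY is LY2955303, an inhibitor of the retinoic acid receptor RARγ, and DMSO is its solvent. All cells were labelled wild type and given 1 batch number, so no batch could be compared.

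The blastocysts came from slaughterhouse oocytes fertilized in vitro and were followed to day 8, and each library was made from 1 embryo. LY10 blastocysts received 10 μM LY from the cleaved 2-cell stage on per the study's text, cell2_LY blastocysts received LY from the 2-cell stage and cell16_LY blastocysts from the 16-cell stage. The last 2 groups carry no concentration in their labels. The methods give LIF, FGF2 and IGF1 as additives of the embryo medium with DMSO and with 10 μM LY alike. The stem cells grew on mouse fibroblast feeders in TIFX medium, which holds LIF, forskolin and inhibitors of kinases and of a chromatin enzyme, with or without LY. The blastocyst tables and the stem cell table were made with different RNA kits and gene models, and each of the 3 tables was normalized on its own, so tests were made only within a table and levels of different tables stand side by side with no test.

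The bovine blastocyst consists of an inner cell mass and a surrounding layer of trophectoderm, from which the trophoblast of the placenta forms. Interferon tau is the ruminant signal of maternal recognition of pregnancy: the trophectoderm secretes it, and it acts on the uterine lining through the type I interferon receptor so that the corpus luteum is kept. The pregnancy-associated glycoproteins are secreted members of the aspartic proteinase family made by trophoblast cells, and some of them circulate in the maternal blood and serve as a pregnancy test in cattle. The trophoblast Kunitz domain proteins carry a fold related to that of serine protease inhibitors and are also secreted by the trophoblast before attachment.

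All 3 families lie in tandem clusters. The blastocyst tables listed 60 PAG genes and pseudogenes on chromosome 29 over 4.355 Mb, 10 interferon tau entries of which 8 lie within 0.25 Mb of chromosome 8, and 9 TKDP genes within 0.41 Mb of chromosome 13, and the positions equalled those of the assembly ARS-UCD2.0. PAG2 lies at 37572051 to 37581465 and PAG12 at 37655999 to 37666176 near one end of the chromosome 29 cluster, and PAG11 at 39438824 to 39456485 and PAG8 at 39726286 to 39736548 further along. IFNT3 lies at 22582520 to 22583580 and IFNT2 at 22608434 to 22609746 of chromosome 8. TKDP1 lies at 74075296 to 74092083 and TKDP4 at 74103138 to 74114983 of chromosome 13. Members of a cluster can share stretches of near-identical sequence, so the counting could have split or dropped reads between copies, and the value of any single copy is uncertain for that reason.

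One name did not carry the gene it is listed with. In both blastocyst tables the gene named PAG1 is the phosphoprotein membrane anchor with glycosphingolipid microdomains 1 of chromosome 14 (44169883 to 44329915), an adaptor protein of the inner plasma membrane, and not the placental glycoprotein. The placental PAG1 is listed there as LOC281964 on chromosome 29 (38604865 to 38614193), with 1 read in 1 of the 12 blastocysts (DMSO replicate 3) and 0 reads in the other 11. In the stem cell table the name stood on 2 rows, the placental gene with 0 reads in all 4 cultures and the phosphoprotein gene with 78 to 130 reads. The placental PAG1 was therefore not measurable above its detection limit in any group, and the values given for PAG1 are those of the phosphoprotein gene. Counts and medians of the tested members include this gene.

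The libraries held 7905768 to 17343140 reads on genes in the blastocysts and 29055323 to 31230432 in the stem cells. The deposited values are FPKM, reads scaled for gene length and for the mapped reads of the library, and the reads behind them were recovered from each gene's length. The highest FPKM that 3 reads give, taken here as the detection limit, was 0.362 for IFNT3, 0.304 for PAG2 and 0.300 for PAG11 in the shallowest blastocyst. Tests were made on log2 of the normalized count plus 1, where the normalized count is the reads scaled to the mean library size of the table, and a gene was called when its unadjusted p was under 0.05 and its absolute log2 fold change above 1, the threshold of the study.

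The samples are labelled as blastocysts, and trophectoderm markers were present in each. All 11 trophectoderm markers had reads in every library, with a summed normalized count of 69874 to 202575 in the first blastocyst table, 142713 to 244109 in the second and 7157 to 22051 in the stem cell table. Summed cumulus cell markers were at 43.6 to 165.1 in the blastocysts and summed oocyte markers at 25.6 to 101.9. Of 7 cumulus markers, 4 were high enough for a test in the first blastocyst table, 1 in the second and 3 in the stem cells. Of 9 oocyte markers these numbers were 1, 2 and 0. None was called in any comparison, and with so few tested the lack of calls says little. In libraries of whole embryos, fewer trophoblast cells and less RNA of a gene per cell cannot be told apart.

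IFNT3 was the most abundant member in the cell16_LY group, and PAG2 was the only other member above 50 FPKM in any blastocyst. In the second table, the group means of IFNT3 were 342.4 FPKM in cell16_LY, 37.3 in cell2_LY and 13.9 in LY_DMSO, and in the first table they were 102.2 in DMSO and 19.3 in LY10. PAG2 had group means of 61.6 FPKM in cell16_LY, 52.2 in cell2_LY and 24.4 in LY_DMSO, and of 71.5 in DMSO and 27.3 in LY10. TKDP1 had means between 0.941 FPKM in LY_DMSO and 9.94 in cell16_LY, and PAG11 between 0.161 in DMSO and 21.6 in cell16_LY. IFNT2 stood far under IFNT3 in each group, with means of 0.45 to 8.75 FPKM.

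**Figure D1:**
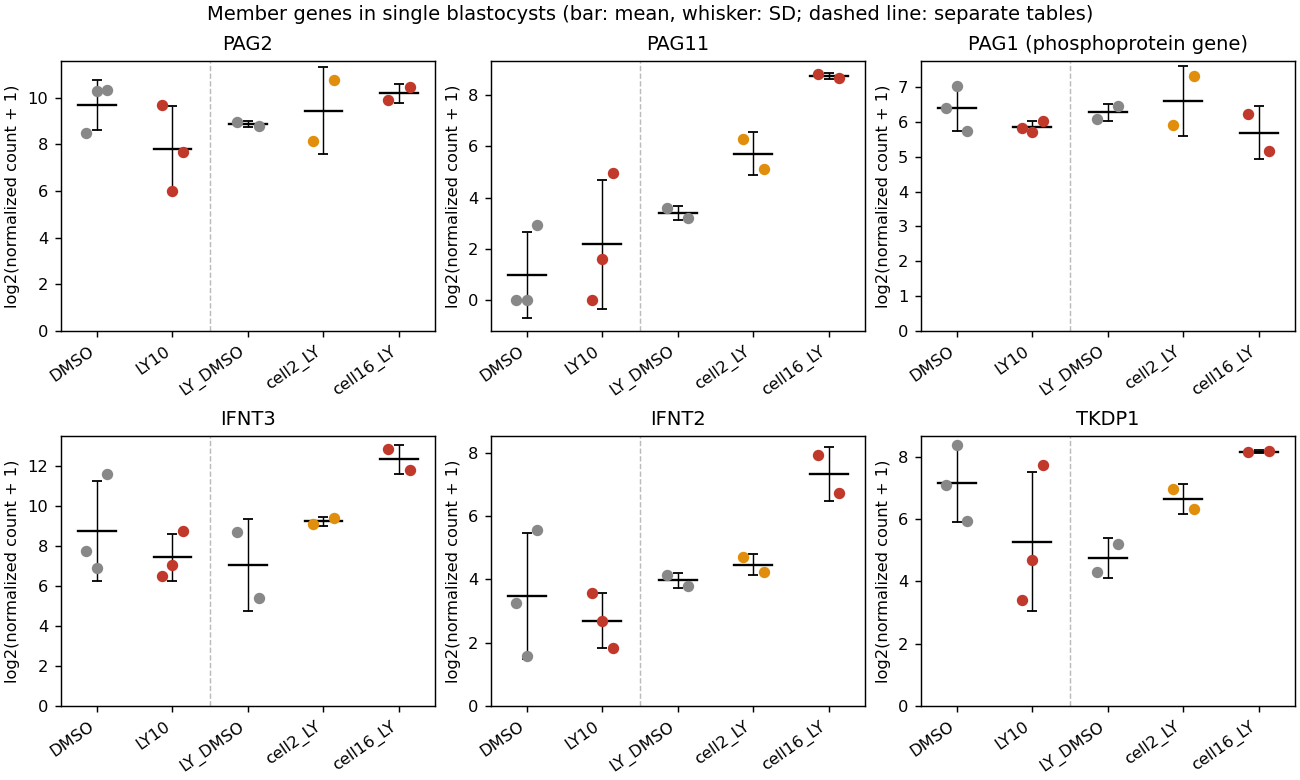
Log2 of the normalized count plus 1 (y axis) of the 6 members that could be tested, by blastocyst group (x axis). Points are single blastocysts, bars group means and whiskers SD, and the dashed line separates the table of DMSO and LY10 from that of LY_DMSO, cell2_LY and cell16_LY. PAG11, IFNT3, IFNT2 and TKDP1 step up from LY_DMSO through cell2_LY to cell16_LY without overlap, whereas no member separates LY10 from DMSO.

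The comparison of cell16_LY with LY_DMSO asks what LY does to the blastocyst when given after genome activation, and here PAG11, IFNT3, IFNT2 and TKDP1 were all higher with LY. For a test, the mean normalized count over all libraries of the table had to reach 10. Of the 6 members that did, 4 were called, all of them higher. Of the 14529 genes tested, 5.22% were called in either direction and 3.25% called higher. PAG11 averaged 9.72 normalized counts in LY_DMSO, 55.5 in cell2_LY and 422 in cell16_LY. The filter thus admitted it through the groups where it was high, and the count of members called includes it. The members' median log2 fold change was 3.39, and that of all tested genes was -0.01. Each of the 4 had a rank between 2 and 29 by p among all tested genes. None of the 4 passed an adjusted p of 0.05, and 0 genes of the table did (0.00%) in this comparison by limma, although 1107 genes (7.62%) had an unadjusted p under 0.05.

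PAG11, one of the pregnancy-associated glycoproteins, was read at 0.57 and 0.426 FPKM in the LY_DMSO blastocysts and at 22.9 and 20.4 FPKM in the cell16_LY blastocysts. The 2 pairs were far apart, and the replicates of each group lay close together. This was a log2 fold change of 5.31 (SE 0.56, 95% interval 4.03 to 6.59, adjusted p = 0.0604 in limma). Without any 1 library it stayed between 5.12 and 5.50.

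IFNT3, an interferon tau gene, was at 25.3 and 2.57 FPKM in LY_DMSO and at 461.7 and 223.1 FPKM in cell16_LY. The lower cell16_LY blastocyst exceeded the higher LY_DMSO blastocyst, but the 2 LY_DMSO blastocysts differed strongly from each other. Between the groups it had a log2 fold change of 5.30 (SE 0.87, 95% interval 3.31 to 7.28, adjusted p = 0.206 in limma). Leaving out LY_DMSO replicate 2 gave 3.66 and leaving out replicate 1 gave 6.93, and both were called. With 1 blastocyst left in a group, here and in the other values without a library of this table, its spread is taken from the other groups.

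IFNT2 was at 0.833 and 0.646 FPKM in LY_DMSO and at 12.3 and 5.24 FPKM in cell16_LY. Its log2 fold change was 3.36 (SE 0.65, 95% interval 1.88 to 4.85, adjusted p = 0.341 in limma). TKDP1, a Kunitz domain protein of the preattachment trophoblast, was at 0.639 and 1.24 FPKM in LY_DMSO and at 9.75 and 10.1 FPKM in cell16_LY. These 4 blastocysts did not overlap between the groups, and the 2 cell16_LY values were nearly equal. The log2 fold change of TKDP1 was 3.43 (SE 0.50, 95% interval 2.30 to 4.56, adjusted p = 0.187 in limma).

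PAG2 was at 25.8 and 23.0 FPKM in LY_DMSO and at 49.8 and 73.5 FPKM in cell16_LY. Its groups did not overlap either, and 5 of the 6 tested members were higher in each cell16_LY blastocyst than in each LY_DMSO blastocyst, a pattern that 20.9% of all tested genes had. The log2 fold change of PAG2 was 1.31 (95% interval -0.29 to 2.91), which was not called in the fit of all 6 libraries (adjusted p = 0.709 in limma). It was called when only the 2 compared groups were fitted (SE 0.28, adjusted p = 0.440 in limma). The phosphoprotein gene PAG1 had a log2 fold change of -0.58 (95% interval -2.001 to 0.85) with overlapping groups.

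The comparison of cell2_LY with LY_DMSO, which shares its 2 control blastocysts with the one before, asks the same for LY begun before genome activation. PAG11, TKDP1 and IFNT3 were higher with LY, by smaller steps. These 3 of the 6 tested members were called, against 17.0% of all tested genes in either direction and 8.71% called higher, and the members' median log2 fold change was 1.23 beside 0.00 for all tested genes. In this comparison 4 members were higher in both cell2_LY blastocysts than in both LY_DMSO blastocysts, as were 26.9% of all tested genes. No member passed an adjusted p of 0.05, as 0.0138% of the tested genes did by limma.

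PAG11 rose from 0.57 and 0.426 FPKM to 3.98 and 1.72 FPKM in the cell2_LY blastocysts, a log2 fold change of 2.29 (SE 0.56, 95% interval 1.01 to 3.58, adjusted p = 0.0814 in limma). TKDP1 was at 4.33 and 2.72 FPKM in cell2_LY, above both LY_DMSO blastocysts, with a log2 fold change of 1.90 (SE 0.50, 95% interval 0.77 to 3.03, adjusted p = 0.0879 in limma). Both were also called without any 1 library, under the same assumption on a lone blastocyst.

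IFNT3 was at 33.5 and 41.1 FPKM in cell2_LY. Both values were above the LY_DMSO blastocysts, but one of those, at 25.3 FPKM, was close to them. IFNT3 had a log2 fold change of 2.19 (SE 0.87, 95% interval 0.20 to 4.17, adjusted p = 0.170 in limma). The call rested on LY_DMSO replicate 2, since without it the log2 fold change was 0.56, and it was also lost without either cell2_LY blastocyst.

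IFNT2 was at 1.25 and 0.887 FPKM in cell2_LY, and its log2 fold change of 0.50 (95% interval -0.99 to 1.98) was not called. PAG2 differed widely between the 2 cell2_LY blastocysts, which were at 14.4 and 89.97 FPKM, one under and one over both LY_DMSO blastocysts. Its log2 fold change of 0.56 (95% interval -1.03 to 2.16) had no stable direction: it was 1.88 without cell2_LY replicate 1 and -0.75 without cell2_LY replicate 2. The phosphoprotein gene PAG1 likewise had a log2 fold change of 0.34 with both blastocysts and -0.37 without cell2_LY replicate 2.

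The contrast of cell16_LY with cell2_LY compares LY begun at the 16-cell stage with LY begun at the 2-cell stage. An earlier start also meant a longer time in LY, so start stage and length of exposure cannot be told apart. PAG11, IFNT3, IFNT2 and TKDP1 were higher when LY began at the 16-cell stage. These 4 of the 6 tested members were called, against 11.3% of all tested genes in either direction and 5.58% called higher, and all 4 of them were higher without overlap, as were 28.2% of all tested genes. The difference on the log2 scale was 3.02 for PAG11 (SE 0.56, 95% interval 1.74 to 4.30, adjusted p = 0.186 in limma) and 2.87 for IFNT2 (SE 0.65, 95% interval 1.38 to 4.35, adjusted p = 0.191 in limma). It was 3.11 for IFNT3 (SE 0.87, 95% interval 1.12 to 5.10, adjusted p = 0.193 in limma).

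TKDP1 showed the smallest of these 4 steps, 1.52 on the log2 scale (SE 0.50, 95% interval 0.39 to 2.65, adjusted p = 0.203 in limma). Without cell16_LY replicate 1 the calls of TKDP1 and IFNT2 were lost and 2 members remained called, and the call of TKDP1 was also lost without cell16_LY replicate 2 or cell2_LY replicate 2. PAG2 did not differ beyond the spread, with a log2 fold change of 0.75 (95% interval -0.85 to 2.35) that was 2.07 without cell2_LY replicate 2 and -0.57 without cell2_LY replicate 1. The order LY_DMSO, cell2_LY, cell16_LY thus had called steps between all neighbours for PAG11, IFNT3 and TKDP1, a called step only between cell2_LY and cell16_LY for IFNT2, and no called step for PAG2.

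**Figure D2:**
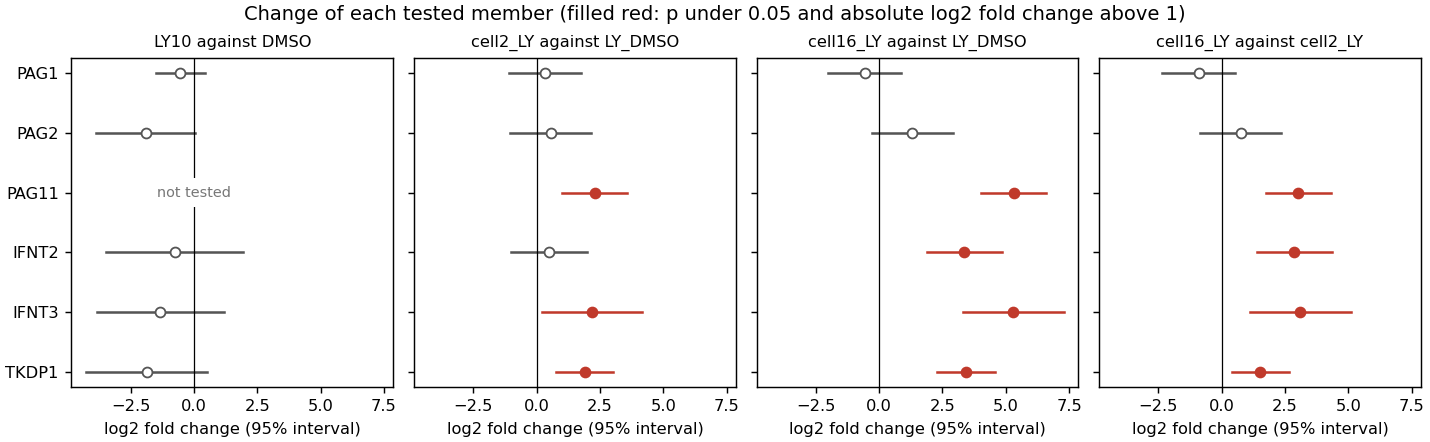
Log2 fold change (x axis) with its 95% interval for each tested member (y axis) in the 4 blastocyst comparisons. Filled red points were called and open points were not. The 4 called members of cell16_LY against LY_DMSO lie between 3.36 and 5.31, and every interval of LY10 against DMSO crosses 0.

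The comparison of LY10 with DMSO, in separate embryos, asks what 10 μM LY does from the cleaved 2-cell stage on, the start that cell2_LY also had. The members' median change was -1.32 here and 1.23 in cell2_LY against LY_DMSO, of opposite sign. These medians cover different genes, since PAG11 was tested only in the second table. The difference between the tables was not tested. No member was called, while 14.7% of the 14249 tested genes were, with 8.51% of the tested genes called lower. All 5 tested members, the phosphoprotein gene PAG1 among them, had log2 fold changes below 0 and groups that overlapped. IFNT2 averaged 18.8 normalized counts in DMSO and 6.29 in LY10. The filter thus admitted it through DMSO, where it was high, and the members' median and shared sign include it. The untested PAG11 had 26 reads in LY10 and 6 in DMSO. Of all tested genes, 28.1% did not overlap between the groups. The median log2 fold change of all tested genes was -0.05. By limma 0 members had an unadjusted p under 0.05, beside 22.9% of all tested genes, and 0 passed an adjusted p of 0.05, beside 0.0140%. With voom weights 1 member, PAG2, was called.

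PAG2 was at 26.3, 91.8 and 96.6 FPKM in DMSO and at 62.1, 4.74 and 15.0 FPKM in LY10. The 2 lowest values were LY10 blastocysts and the 2 highest were DMSO blastocysts, but LY10 replicate 1 stood above DMSO replicate 1. PAG2 had a log2 fold change of -1.90 (SE 0.86, 95% interval -3.85 to 0.06, adjusted p = 0.2299 in limma). It was called without DMSO replicate 1 (-2.51) and without LY10 replicate 1 (-2.85).

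TKDP1 was at 6.78, 16.7 and 2.97 FPKM in DMSO and at 0.471, 1.22 and 10.6 FPKM in LY10. LY10 replicate 3 stood among the DMSO blastocysts and the other 2 LY10 blastocysts lay under them. The log2 fold change of -1.87 (SE 1.05, 95% interval -4.26 to 0.52, adjusted p = 0.317 in limma) became -3.11 without LY10 replicate 3 and was then called.

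IFNT3 was at 19.3, 10.4 and 277.1 FPKM in DMSO and at 7.96, 11.6 and 38.4 FPKM in LY10. One DMSO blastocyst, replicate 3, stood far above all others of the table. Its log2 fold change was -1.32 (95% interval -3.84 to 1.20, adjusted p = 0.497 in limma), and without DMSO replicate 3 it was 0.11. IFNT2 had its highest value in the same blastocyst, 3.29 FPKM against 0.611 and 0.142 in the other DMSO and 0.185 to 0.78 in the LY10 blastocysts. Its log2 fold change was -0.77 (95% interval -3.48 to 1.94) and 0.21 after quantile normalization. The phosphoprotein gene PAG1 had a log2 fold change of -0.54 (95% interval -1.51 to 0.44).

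PAG11 was too low to be tested in this table, with 0, 0 and 6 reads in DMSO and 0, 3 and 23 reads in LY10. The highest of these, LY10 replicate 3, was at 2.19 FPKM. The LY_DMSO blastocysts of the other table, with 12 and 9 reads, were at 0.57 and 0.426 FPKM.

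**Figure D3:**
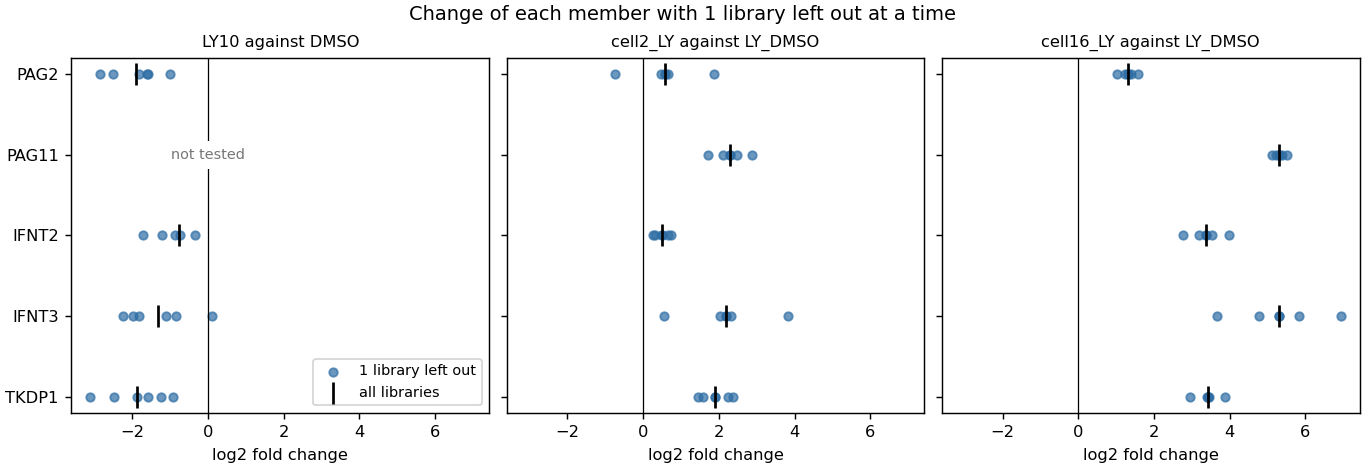
Log2 fold change (x axis) of the 5 secreted members (y axis) in the 3 comparisons of LY with its solvent. Black bars are the values from all libraries and blue points those with 1 library of the table left out at a time, including libraries of the third group in the second table. PAG11 in cell16_LY stays between 5.12 and 5.50, whereas IFNT3 in LY10 reaches 0.11 and PAG2 in cell2_LY reaches -0.75.

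PAG8, PAG12 and TKDP4 were at or near the detection limit everywhere and were not tested. PAG8 had 10 reads in DMSO replicate 1 and 0 reads in the other 5 blastocysts of its table. In the second table it had 0 reads in both LY_DMSO blastocysts, 3 and 7 in cell2_LY and 6 and 1 in cell16_LY, all at most 0.331 FPKM. PAG12 had 4 reads in cell2_LY replicate 2, 2 in cell16_LY replicate 1 and 0 in the other 10 blastocysts. TKDP4 had 8 reads in DMSO replicate 2, 5 in cell16_LY replicate 1, 1 in each of 3 others and 0 in the rest.

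In the stem cells no interferon tau, PAG or TKDP member could be compared. PAG2, PAG11, PAG12, IFNT2, IFNT3, TKDP1, TKDP4 and the placental PAG1 had 0 reads in all 4 cultures, which allows up to 0.113 FPKM for IFNT3 and 0.0732 FPKM for PAG2 in the shallowest. PAG8 had 2 and 4 reads in bESC_tifx and 2 and 3 reads in bESC_LY. The phosphoprotein gene PAG1 was at 0.872 and 0.904 FPKM in bESC_tifx and at 1.06 and 1.35 FPKM in bESC_LY, with a log2 fold change of 0.42 (95% interval -0.44 to 1.28, adjusted p = 1 in limma), while 0.0749% of the 16012 tested genes were called. In this table the IFNT3 and TKDP1 records run over a wider stretch of their chromosomes than in the blastocyst tables.

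The other genes of the 3 families were taken by their name, description or best protein match: 71 in each blastocyst table, of which 7 were tested in the first table and 10 in the second. Together with the members, interferon tau genes took 29.6 RPM (reads scaled to a library size of 1e+06) on average in LY_DMSO, 78.4 in cell2_LY and 664.7 in cell16_LY, and 165.6 in DMSO and 38.1 in LY10. The DMSO mean held blastocysts between 22.6 and 423.9. All PAG genes together took 32.4, 70.8 and 106.6 RPM in LY_DMSO, cell2_LY and cell16_LY, and all TKDP genes 7.2, 14.5 and 86.6. In the first table the means went the other way, with 93.3 RPM in DMSO and 36.0 in LY10 for PAG and 35.5 in DMSO and 14.1 in LY10 for TKDP, and the groups overlapped. Each cell16_LY blastocyst exceeded each LY_DMSO blastocyst in all 3 families.

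**Figure D4:**
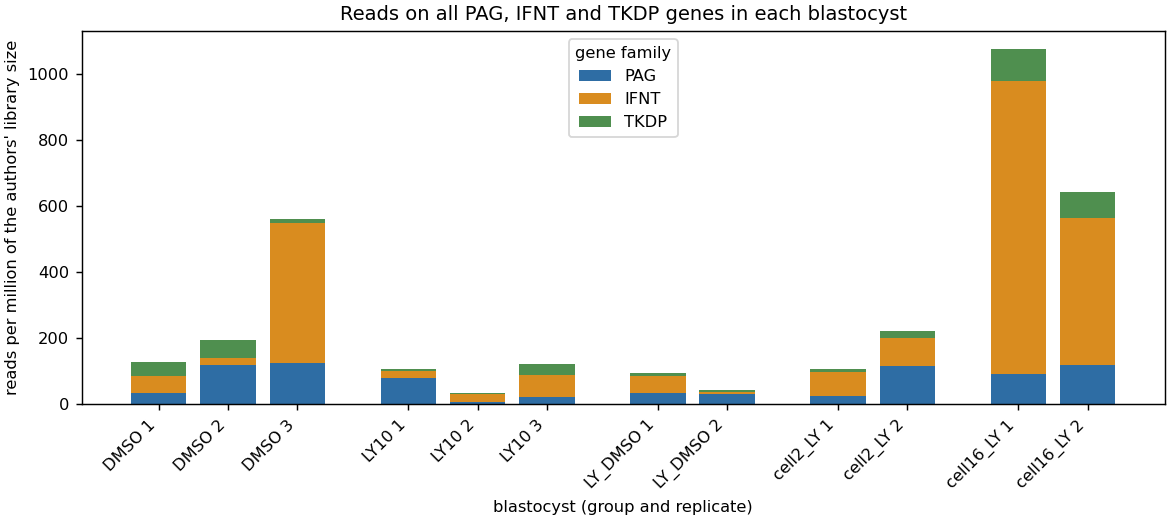
Reads on all PAG, interferon tau and TKDP genes in RPM of the authors' library size (y axis) in each of the 12 blastocysts (x axis), stacked by family. Interferon tau makes up most of the sum in both cell16_LY blastocysts, at 885.3 and 444.1, and in DMSO replicate 3, at 423.9.

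LOC112445660, annotated as interferon tau-1 on an unplaced sequence, and LOC112447782, an interferon tau pseudogene beside IFNT3, followed IFNT3. In cell16_LY against LY_DMSO their log2 fold changes were 5.62 (SE 0.92) and 5.51 (SE 0.99), and in cell2_LY against LY_DMSO they were 2.59 and 2.999, all of them called. In LY10 against DMSO they were -1.11 and -1.03, not called. LOC112445660 was between 0.318 and 1.21 times the FPKM of IFNT3 over the 12 blastocysts, and the lowest ratio was that of DMSO replicate 3. Whether the copies were transcribed separately or shared reads was not tested.

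**Figure D5:**
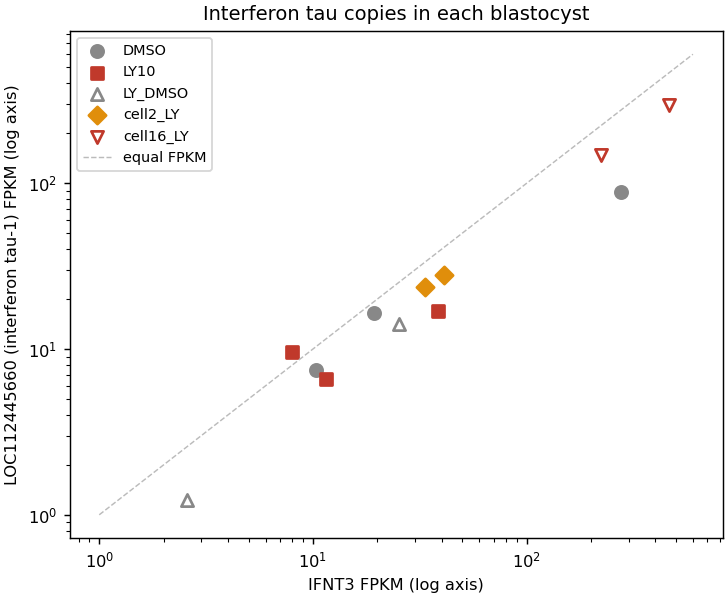
FPKM of LOC112445660, annotated as interferon tau-1 (y axis), against that of IFNT3 (x axis) in each of the 12 blastocysts, both on log axes, with the dashed line at equal FPKM. The 2 cell16_LY blastocysts are at the top right with DMSO replicate 3, and LY_DMSO replicate 2 is at the bottom left.

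A pair of other TKDP genes was called. LOC618696 was at 14.1, 9.24 and 2.48 FPKM in DMSO and at 1.22, 0.126 and 2.08 FPKM in LY10, so that the groups did not overlap, and its log2 fold change was -3.16 (SE 0.98, adjusted p = 0.117 in limma). In the second table it was at 2.72 and 0.578 FPKM in LY_DMSO, 0.108 and 6.17 in cell2_LY and 33.1 and 23.4 in cell16_LY, with a log2 fold change of 4.43 (SE 1.48) in cell16_LY against LY_DMSO. LOC132346840 was at 0.503 and 0.452 FPKM in LY_DMSO, at 0 and 0.429 in cell2_LY and at 8.99 and 7.16 in cell16_LY, a log2 fold change of 3.93 (SE 1.10) from LY_DMSO to cell16_LY. LOC132346840 averaged 148.6 normalized counts in cell16_LY, 8.79 in LY_DMSO and 3.95 in cell2_LY, so the filter admitted it through cell16_LY. Over the tested family genes that are no members, 1 of 7 was called lower in LY10 against DMSO, beside 8.51% of all tested genes. Higher calls were made for 4 of 10 in cell16_LY against LY_DMSO, beside 3.25% of all tested genes, for 2 of 10 in cell2_LY against LY_DMSO, beside 8.71%, and for 4 of 10 in cell16_LY against cell2_LY, beside 5.58%.

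The remaining tested genes of the families were not called in any comparison. The interferon tau gene LOC101908039 was at 1.13, 1.09 and 1.44 FPKM in DMSO and at 0, 0.441 and 0.378 FPKM in LY10, lower without overlap, with a log2 fold change of -2.32 (SE 1.07) that missed the threshold. In cell16_LY against LY_DMSO its value was -0.12 with overlapping groups. The interferon tau gene IFN-tau-c1 had a log2 fold change of 1.85 (SE 1.04) in that comparison. IFN-TAU had -0.69 (SE 1.08). It is described as interferon-tau-like, has interferon omega-1 as its best protein match and is counted among the interferon tau entries. The pseudogene LOC132345929 had 1.62 (SE 1.38), and LOC112445661, a noncoding RNA beside LOC112445660, had 1.05 (SE 1.26). LOC404061, described as a spleen trypsin inhibitor and placed with the TKDP genes by its protein match, had 1.57 (SE 1.34). Over the 10 tested family genes that are no members, the median log2 fold change was 1.73 in cell16_LY against LY_DMSO and 0.10 in cell2_LY against LY_DMSO, and over the 7 genes of the first table it was -1.11 in LY10 against DMSO. In the first table LOC101908039, IFN-tau-c1 and LOC132345929 averaged above 10 normalized counts in DMSO only (16.7, 30.5 and 13.7, against 3.74, 6.98 and 7.47 in LY10). The filter admitted these through DMSO, so the sign of that median is partly set by the filter. In the second table IFN-tau-c1 and LOC112445661 averaged under 10 in LY_DMSO and above it in cell16_LY, and IFN-TAU the reverse.

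Of 17 tested regulators of interferon tau, 1 was called higher in cell16_LY against LY_DMSO, JUN, a subunit of the AP-1 transcription factor, with a log2 fold change of 1.06, and the list's median was 0.24. In cell2_LY against LY_DMSO 4 were called higher, with a median of 0.95: CDX2, a trophectoderm transcription factor (2.78), JUN (2.52), GATA2 (1.99) and DLX3 (1.88). In cell16_LY against cell2_LY 4 were called lower, GATA2 (-1.94), CDX2 (-1.84), JUN (-1.46) and JUNB (-1.18), with a median of -0.73. In LY10 against DMSO POU5F1 was called higher (1.23) and the growth factor FGF2 lower (-1.88), with a median of -0.39. Beside the counts of this list and the following ones stand the shares of all tested genes called in either direction. These were 5.22% in cell16_LY and 17.0% in cell2_LY against LY_DMSO, 11.3% in cell16_LY against cell2_LY and 14.7% in LY10 against DMSO. No list was tested against these shares.

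Among 11 trophectoderm markers, 0 were called in cell16_LY against LY_DMSO, with a median log2 fold change of 0.06, and by limma 1 of them, TFAP2C (-0.56, named after its value was seen), had an unadjusted p under 0.05. In cell2_LY against LY_DMSO 2 of them were called higher (CDX2 and GATA2), and the same pair was called lower in cell16_LY against cell2_LY. In LY10 against DMSO FGFR4 was called higher (1.81). Summed trophectoderm markers were at 142713 to 168128 normalized counts in LY_DMSO, 169061 to 244109 in cell2_LY and 175374 to 241459 in cell16_LY. High markers weigh most in this sum. PTGS2 was at 64448 ± 43222 (SD) in cell16_LY and 27579 ± 6055 in LY_DMSO, whereas CDX2 was at 20.4 and 10.2. The part of trophectoderm content in the members' changes was not tested.

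The receptor chain IFNAR1 and the signalling genes behind it showed no call in any comparison, 0 of 6 tested in the blastocysts, with medians between -0.15 and 0.29. IFNAR1 itself had the highest value in cell16_LY against LY_DMSO, 0.70 (adjusted p = 0.677 in limma).

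Of 21 listed names of genes known to respond to interferon, 11 reached the level for a test in the first table and 6 in the second. The names RIGI and DDX58 on this list stand for 1 gene. In cell16_LY against LY_DMSO, USP18, a protease that removes the ubiquitin-like ISG15, was called higher with a log2 fold change of 3.89 and the transcription factor IRF1 lower with -1.33. In cell2_LY against LY_DMSO IRF1 was lower (-1.63), and in cell16_LY against cell2_LY USP18 (2.53) and IFIH1 (2.35), a sensor of double-stranded RNA, were higher. In LY10 against DMSO, 1 of 11 was called: MX1, an antiviral GTPase, at 6.52 ± 8.07 (SD, n = 3) normalized counts in LY10 and 235.2 ± 184.4 in DMSO, a log2 fold change of -5.44. Over all tested genes, 8.51% were called lower in that comparison. The list's median was -1.86. OAS1Y, a gene at that median, and IFI27 had reads in DMSO replicate 3 but in neither other DMSO blastocyst. Both reached the level for a test through that 1 embryo, so the median rests in part on it. In the first table MX1, IFI6, ISG15, USP18 and IFI44 also averaged under 10 normalized counts in LY10 and above it in DMSO. The filter admitted these through DMSO, so the sign of the median is partly set by the filter. The summed normalized count of the list was 2143 in DMSO replicate 3, the blastocyst with the most interferon tau of its table, and 207.3 to 518.6 in the other 5. In the second table it was 835.7 and 424.5 in the cell16_LY blastocysts and 379 and 504.6 in the LY_DMSO blastocysts, so that these groups overlapped.

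Of 27 other secreted or trophoblast products, 15 were tested in the first blastocyst table and 13 in the second. PLAU, the urokinase plasminogen activator, was called higher in cell16_LY (2.83) and in cell2_LY (2.46) against LY_DMSO, and CYP11A1, the enzyme that makes pregnenolone from cholesterol, in cell16_LY (2.33). CTSZ was higher in cell2_LY than in LY_DMSO (1.64) and lower in cell16_LY than in cell2_LY (-1.40), and SPP1 was lower in cell2_LY (-2.54). In LY10 against DMSO the matrix protease MMP9 (-3.34) and the steroid enzyme HSD3B1 (-2.27) were lower. Medians were 0.54, 0.30, 0.37 and -0.47 in cell16_LY and cell2_LY against LY_DMSO, cell16_LY against cell2_LY, and LY10 against DMSO.

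Markers of the other cell types a blastocyst library could hold were counted in the same way. Of 8 tested epiblast markers, 0 were called in cell16_LY against LY_DMSO (median -0.59) and in cell16_LY against cell2_LY (median -0.05), 2 lower in cell2_LY against LY_DMSO (KLF17 and DPPA3) and 1 higher in LY10 (POU5F1). Of 8 tested hypoblast markers, 0 were called in cell16_LY against LY_DMSO (median -0.17) or against cell2_LY, PDGFRA was lower in cell2_LY (-2.01), and in LY10 PDGFRA (3.74) and HNF4A (3.31) were higher and LAMB1 lower (-1.07). Of 5 tested fibroblast markers, DCN (-2.76) and COL1A2 (-1.22) were lower in LY10 and 0 were called in the second table. No gene of these lists was called in the stem cells.

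The embryos also differed in their sex-linked genes, which were looked at after the values were known. The Y-linked genes DDX3Y, USP9Y and ZFY were read at 449.0 to 1817 normalized counts in DMSO replicate 3, LY10 replicate 1, LY_DMSO replicate 1, cell16_LY replicate 2 and both cell2_LY blastocysts, and at 0 in the other 6. IFNT3 was at 277.1 FPKM in the DMSO blastocyst with these genes and at 19.3 and 10.4 in those without. It was at 25.3 with and 2.57 FPKM without them in LY_DMSO, at 223.1 with and 461.7 without them in cell16_LY, and at 7.96 with and 11.6 and 38.4 without them in LY10. The part of embryo sex in the members' changes was not tested.

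Over the 6 blastocysts of the second table, the Pearson correlation of log2 normalized counts with PAG11 was 0.91 for IFNT3, 0.93 for IFNT2, 0.96 for TKDP1 and 0.43 for PAG2, where the points share the 3 treatment groups. Over the 6 blastocysts of the first table, the same values were 0.62, 0.03, 0.23 and -0.29. Genes were also compared with log2 of each family's summed member FPKM plus 1, each table centred on its mean. PAG2, IFNT3 and TKDP1 made up most of these sums in every blastocyst, and PAG2 and PAG11 themselves had r = 0.01 over all 12 blastocysts. Among 9321 genes outside the families, those most like the PAG sum over all 12 blastocysts were CCNG1 (r = 0.94), TMED7 (0.92) and TTPAL (0.92). Those most like the interferon tau sum were TMEM50B (0.92), SLC35F5 (0.90) and RAB33B (0.89), and those most like the TKDP sum were TSC22D2 (0.95), SEC24D (0.86) and PLEKHA3 (0.86). These genes were picked for their high r among the 9321, and no r was tested.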

How the data were processed

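RNA of 12 single blastocysts (SMART-seq) and 4 stem cell cultures was sequenced. The authors aligned reads with HISAT2 2.0.5 and counted them with featureCounts 1.5.0-p3 per the labels and methods; the methods also name STAR. The deposited values are FPKM. Multiplying FPKM by gene length and by 1 step per library gave whole reads for 100% of values (tolerance 0.02 reads). Normalized counts are these reads divided by the library size implied by the authors' FPKM, and brought back to the table's geometric mean size. limma 3.58.1 (R 4.3.3, lmFit and eBayes with trend) was run on log2(normalized count + 1) for genes with a mean of at least 10. A call required a limma p below 0.05 before adjustment together with a change of more than 1 on the log2 scale, and Benjamini-Hochberg values cover all tested genes of a table. The second blastocyst table was fitted with its 3 groups together. Fold changes understate the change of low genes. With 2 or 3 embryos a group, intervals are wide, and detection limits of 3 reads cover counting error only. The labels do not say whether embryos or cultures of a group came from separate runs or parents, so p-values measure the spread between these samples. Alternatives were other pseudocounts (0.5 and 5), filters (none, or at least 50), scalings, log2(FPKM + 1), voom weights, a replicate block and leaving out each library. Members were all named. Other family genes were named when their mean was at least 10, and of each list at most 4 genes, the 2 highest and 2 lowest called or else the ends of the list. Any other gene was picked with its values in view. The members and lists were chosen with earlier results of these data known. The fit was tested on simulated data. No sequence is given.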

Additional observations from a re-analysis of the deposited data

Results flagged for a closer look

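In the direct contrast of cell16_LY with cell2_LY, 4 members were called, where start stage and length of exposure cannot be told apart. The log2 difference was 3.11 for IFNT3 (adjusted p = 0.193 in limma) and 2.87 for IFNT2 (adjusted p = 0.191 in limma). It was 1.52 for TKDP1 (adjusted p = 0.203 in limma) and 3.02 for PAG11 (adjusted p = 0.186 in limma). Each was higher in 2 of 2 cell16_LY blastocysts, as were 28.2% of all tested genes, and none passed an adjusted p of 0.05. Without cell16_LY replicate 1 the calls of IFNT2 (2.26) and TKDP1 (1.55) were lost, and that of TKDP1 was also lost without cell16_LY replicate 2 (1.496) or cell2_LY replicate 2 (1.19). LOC618696, a TKDP gene, had a log2 fold change of -3.16 in LY10 against DMSO and 4.43 in cell16_LY against LY_DMSO, with no overlap in either comparison, and the difference between these 2 tables was not tested. LOC132346840, another TKDP gene, had -1.71 in cell2_LY against LY_DMSO, from 8 reads against 19, and 3.93 in cell16_LY against LY_DMSO, with no overlap in either. The contrast of cell16_LY with cell2_LY gave 5.64 for it (adjusted p = 0.188 in limma). No group held 4 or more embryos, so no single embryo was tested for standing apart.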

How the results depend on the processing

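The 4 members called in cell16_LY against LY_DMSO (PAG11, IFNT3, IFNT2 and TKDP1) and 2 of those called in cell2_LY against LY_DMSO (PAG11 and TKDP1) were called under all 11 other settings and without each of 6 libraries. The call of IFNT3 in cell2_LY was lost with log2(FPKM + 1) (1.98) and without LY_DMSO replicate 2 or either cell2_LY blastocyst. No member was called in LY10 against DMSO, but 1 was with no filter, with voom weights (PAG2 in both) or with the replicate block (IFNT3), and 0 to 1 without 1 library. In cell16_LY against cell2_LY 2 to 5 members were called without 1 library, against 4. Directions turned for IFNT2 in LY10 after quantile normalization (0.21) and, without 1 library, for IFNT3 in LY10 (-2.26 to 0.11), for PAG1 and PAG2 in cell2_LY (-0.37 to 1.05 and -0.75 to 1.88) and for PAG2 in cell16_LY against cell2_LY (-0.57 to 2.07). The cause was not tested.

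Same-numbered blastocysts did not deviate together in every pair: r was -0.12, 0.17 and -0.10 in the first table and -0.23, 0.12 and -0.13 in the second. The same-numbered stem cell cultures did deviate together (r = 0.79), but they had too few pairs to settle a pairing. With the replicate block the genes called were 2060 in LY10 against DMSO, 790, 2489 and 1632 in the second table, and 146 in the stem cells against 12, and PAG2 was called in cell16_LY. With the numbers of cell16_LY crossed, chosen after seeing the data, the genes called in the second table were 928, 2723 and 1891.

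Over all genes, calls in LY10 against DMSO moved from 2097 to 1350 with a mean of at least 50, to 1327 without DMSO replicate 2 and to 3449 without DMSO replicate 3. Those in cell16_LY against LY_DMSO moved from 758 to 1238 with no filter, 454 with log2(FPKM + 1), and 350 to 1362 without 1 library. Those in cell2_LY against LY_DMSO moved from 2476 to 1628 with log2(FPKM + 1) and to 1576 without cell2_LY replicate 1, and those in cell16_LY against cell2_LY from 1649 to 958 with log2(FPKM + 1) and 816 to 2910 without 1 library. In the stem cells they were 158 with no filter, 2 with a mean of at least 50, 22 with log2(FPKM + 1) and 29 to 58 without 1 library. Scaling by reads on genes shifted the median of all genes to 0.24 in cell2_LY against LY_DMSO and to -0.18 in cell16_LY against cell2_LY, and the calls from 1265 higher and 1211 lower to 1846 and 675, and from 810 and 839 to 422 and 1264. Quantile normalization moved LY10 against DMSO from 884 higher and 1213 lower to 1074 and 879. Genes under about 10 normalized counts, PAG8, PAG12 and TKDP4 among them, are beyond what this depth can compare.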
